A study of Mus musculus with 12 samples.

Results

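Aminoacyl-tRNA synthetases join each amino acid to its transfer RNA, the step that sets which amino acid a codon receives. Most eukaryotic cells keep 2 sets of them, both encoded in the nucleus: 1 set works in the cytosol on the bulk of protein synthesis, and the other is imported into mitochondria, where it serves the few proteins of the respiratory chain that mitochondrial DNA encodes. Several cytosolic synthetase genes are known targets of ATF4, a transcription factor made when amino acids run short or mitochondria are impaired. The genes described here were chosen by symbol, the older form without the final 1 included. They number 35 of the 57180 genes in the deposited tables, 19 cytosolic and 16 mitochondrial, and 14 of them were listed under the older symbol. All 35 were among the 25446 genes tested.

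RNA was sequenced from E14 mouse embryonic stem cells (ESCs) that carry a doxycycline (DOX) inducible repressor for CRISPR interference, in cells expanded from picked colonies. Scramble guide RNAs define the Neg line, and guide RNAs against Pcx (pyruvate carboxylase), Me1 and Me2 (malic enzymes) define the 3xKD line. Guides were brought in on PiggyBac vectors, and both lines share the repressor. Each line was sequenced as ESCs in 2i and LIF medium and as epiblast-like cells (EpiLCs) on day 2 of induction with activin A, FGF2 and XAV939, under low oxygen. Each of the 4 groups has 3 libraries. The labels do not name DOX, and the study describes these cells as DOX-treated. The study states biological triplicates for its experiments in general, and the labels do not say that the 3 libraries of a group came from separate cultures, so p-values measure the spread between these libraries. The cell type field of the labels contradicts the sample titles, and the groups follow the titles.

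The libraries held 11221023 to 19652197 estimated counts. Pcx, Me1 and Me2 were lower in 3xKD in both states, with log2 fold changes between -1.14 and -0.89. In Neg cells all 9 naive markers (Esrrb and Klf4 among them) were lower and all 6 formative markers (Fgf5 and Otx2 among them) were higher in EpiLCs, the direction the titles imply. In 3xKD all 9 naive markers were lower in ESCs (median -0.65), and in EpiLCs all 6 formative markers were lower (median -1.03) while 4 of 9 naive markers were higher and 2 lower (median 0.05). The part of these shifts in the synthetase results was not tested. In bulk RNA, fewer cells of a type and less RNA per cell cannot be told apart.

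Levels are compared between genes in TPM, which corrects for transcript length, and between groups in CPM, counts scaled by library size and TMM factors. In Neg ESCs the mean TPM of the cytosolic genes ran from 22.9 (Hars1, the histidyl enzyme) to 123 (Iars1, the isoleucyl enzyme), with a median of 52.8 over the 19 genes. Those of the mitochondrial genes ran from 1.92 (Mars2, methionyl) to 29.6 (Yars2, tyrosyl), with a median of 11.9 over the 16 genes. The 2 ranges overlapped where Lars2 (26.3 ± 13.4 TPM) and Tars2 (23.0 ± 5.04 TPM) stood beside Wars1 and Hars1 (22.9 ± 5.08 TPM), with Yars2 just above them. The place of Lars2 is uncertain, since a transcript annotated for nonsense-mediated decay gave 3.03 to 29.4 TPM of its total in Neg ESCs. Its main coding transcript gave 6.43 to 9.29 TPM there. Iars1 (123 ± 17.2 TPM, SD, n = 3) and Qars1 (110 ± 31.3 TPM), the glutaminyl enzyme, led the order and did not differ beyond their spread. Transcripts annotated as coding held 24.8% to 49.4% of Qars1 counts per library. Mars2 (1.92 ± 0.434 TPM) closed the order, below Wars2 (4.51 ± 1.58 TPM), the tryptophanyl enzyme. Within each group TPM moved between libraries of 1 condition, and the cytosolic sum ran from 1012 to 1404 TPM in Neg ESCs, so TPM was used for order alone.

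**Figure D1:**
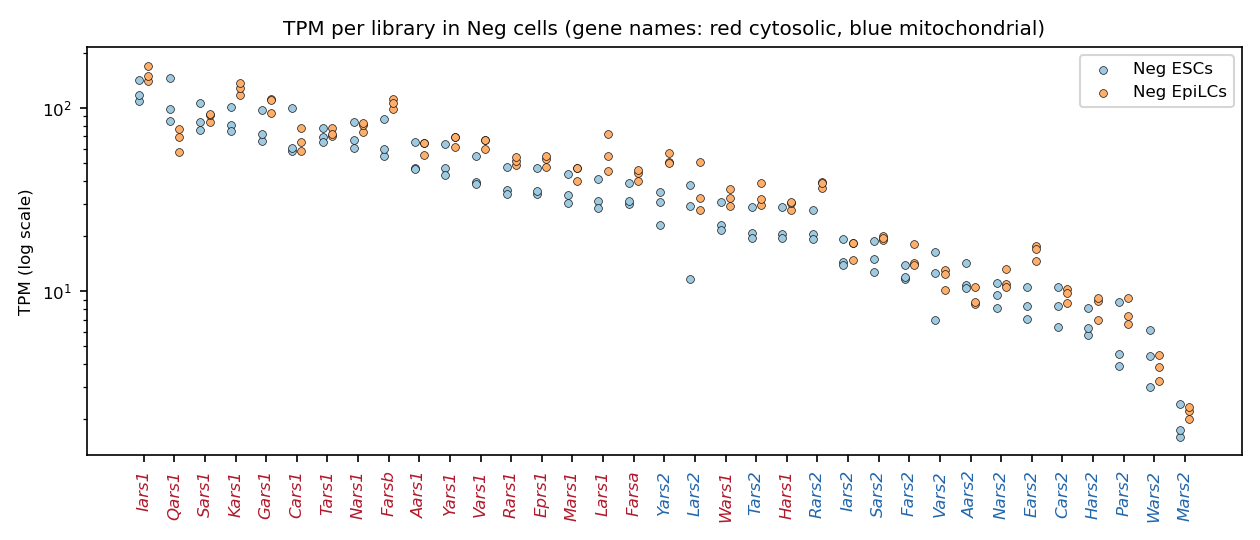
TPM per library (y axis, log scale) of the 35 synthetase genes in Neg ESCs and Neg EpiLCs, ordered by their mean in Neg ESCs. Cytosolic genes (red names) fill the upper part and mitochondrial genes (blue names) the lower part, from Iars1 at a mean of 123 TPM to Mars2 at 1.92 TPM in Neg ESCs.

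The comparison of 3xKD with Neg asks how expression answers the repression of pyruvate cycling. Neg and 3xKD are separate lines, so an effect of the repression cannot be told apart here from other differences between the lines. The medians of the cytosolic and mitochondrial sets, given below, lay on opposite sides of 0. A gene is called when its adjusted p is under 0.01 and its log2 fold change is past 0.58 in either direction, the limits of the study's methods. In ESCs 3 of 19 cytosolic genes were called higher (Vars1, Sars1 and Gars1) and 0 lower, where 15.3% of all genes tested were called, 8.5% higher and 6.76% lower. Of the 16 mitochondrial genes 0 were called higher and 3 lower (Wars2, Mars2 and Ears2). In EpiLCs 3 cytosolic genes were called higher (Sars1, Vars1 and Cars1) and 0 lower, beside 13.2% of all genes (7.88% higher and 5.35% lower), while 1 mitochondrial gene was called higher (Vars2) and 3 lower (Wars2, Ears2 and Rars2). Among the 9634 genes that averaged 10 CPM or more, 19.4% were called in ESCs (916 higher and 950 lower) and 18.1% in EpiLCs (886 and 857). The cytosolic share was 15.8% in both states, and the mitochondrial share 18.8% in ESCs and 25% in EpiLCs.

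Many synthetase genes passed the adjusted p without reaching the fold limit. At an adjusted p under 0.01 alone, 12 of 19 cytosolic genes rose in 3xKD ESCs and 0 fell, while 31.6% of all genes passed (15.6% rose and 16% fell). The median log2 fold change of the 19 was 0.32, beside 0.03 over all genes tested. For the 16 mitochondrial genes the same limit gave 8 that fell and 2 that rose, with a median of -0.32. In EpiLCs 11 cytosolic genes rose and 4 fell (29.9% of all genes passed, 14.3% up and 15.6% down, and the median of the 19 was 0.14), and 6 mitochondrial genes fell and 2 rose (median -0.18, against 0.03 over all genes). Members are well expressed. Among the 9634 genes that averaged 10 CPM or more, 27.3% rose and 33.4% fell in ESCs, with a median of -0.035. In EpiLCs 25.1% of them rose and 35.1% fell, with a median of -0.06. The share of mitochondrial genes that fell in EpiLCs (37.5%) was near that 35.1%. With offsets for transcript length, which follow the length that the authors' quantifier estimated, the mitochondrial genes that fell in ESCs numbered 3 and those that rose 0, and the cytosolic genes that rose in EpiLCs numbered 7.

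**Figure D2:**
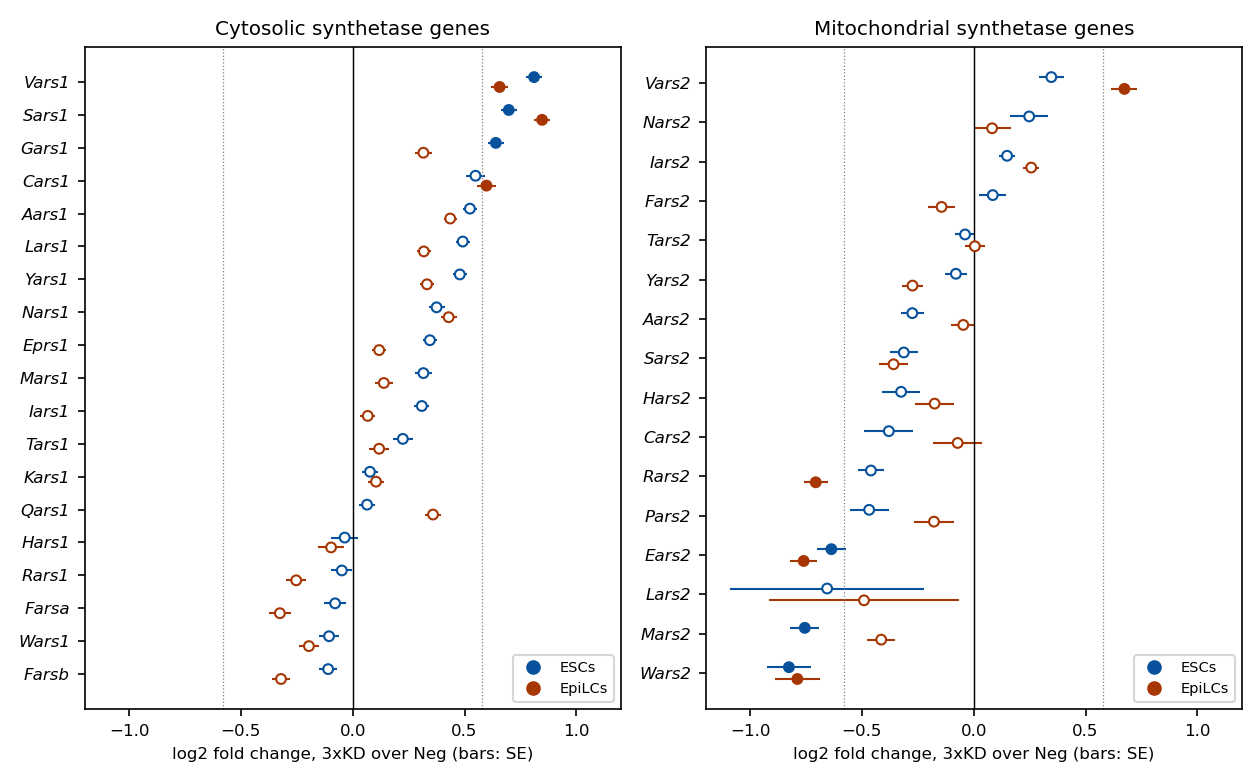
Log2 fold change of 3xKD over Neg (x axis) with its standard error (bars) for the 19 cytosolic genes (left) and the 16 mitochondrial genes (right), in ESCs (blue) and EpiLCs (brown). Filled points are called, open points are not, and dotted lines mark 0.58 in either direction. Most cytosolic points lie right of 0 and most mitochondrial points left of it.

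Vars1, which charges valine, had the largest cytosolic change in ESCs (GRCm39 chr17:35219871-35235305, plus strand). It stood at 229, 233 and 220 CPM in Neg ESCs and at 394, 398 and 404 CPM in 3xKD ESCs. In EpiLCs the values were 252, 257 and 260.0 CPM in Neg and 425, 405 and 383 CPM in 3xKD. All 3xKD libraries lay above all Neg libraries of the same state. The log2 fold change was 0.81 ± 0.04 (SE) in ESCs, 1.75-fold, with an adjusted p of 7e-11, and 0.66 ± 0.04 in EpiLCs with an adjusted p of 7.3e-10. With transcript-length offsets the EpiLC value was 0.49, under the fold limit.

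Sars1, the seryl enzyme (chr3:108332181-108352701, minus strand), was the member with the largest rise in EpiLCs. Neg ESCs held 148, 148 and 141 CPM and 3xKD ESCs 241, 239 and 228 CPM. Neg EpiLCs held 129, 127 and 126 CPM, and 3xKD EpiLCs 239, 226 and 221 CPM. The groups did not overlap in either state. Its log2 fold change was 0.70 ± 0.04 in ESCs (adjusted p = 2.5e-10) and 0.85 ± 0.04 in EpiLCs (adjusted p = 3.8e-11), or 1.62-fold and 1.80-fold.

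Gars1 encodes the glycyl enzyme of both compartments (chr6:55014927-55061231, plus strand). Its CPM were 248, 272 and 268 in Neg ESCs and 410.0, 402 and 416 in 3xKD ESCs, without overlap. In EpiLCs they were 287, 296 and 298 in Neg and 374, 366 and 357 in 3xKD, again without overlap but with a smaller gap. The rise was 0.64 ± 0.04 on the log2 scale in ESCs (adjusted p = 7e-10), which was called, and 0.32 ± 0.04 in EpiLCs (adjusted p = 2.6e-06), which was under the fold limit. The difference between the states was tested and passed (-0.32 ± 0.05, adjusted p = 0.0003).

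Cars1, the cysteinyl enzyme (chr7:143107440-143153828, minus strand), gave 114, 128 and 119 CPM in Neg ESCs against 175, 178 and 176 CPM in 3xKD ESCs. In EpiLCs it gave 99.7, 97.8 and 103 CPM in Neg against 154, 155 and 145 CPM in 3xKD. Every 3xKD library exceeded every Neg library of its state. The log2 fold change of 0.60 ± 0.04 in EpiLCs was called (adjusted p = 7.8e-09), and that of 0.55 ± 0.04 in ESCs fell just under the limit (adjusted p = 1.7e-08). The 2 values lie on either side of the fold limit and their difference did not pass (adjusted p = 0.67). Without 3xKD EpiLCs replicate 2 the EpiLC value was 0.58 and no longer called, and the ESC value became called without Neg ESCs replicate 2 or 3xKD ESCs replicate 1, and with transcript-length offsets (0.74).

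Other cytosolic genes rose at the adjusted p in both states below the fold limit. Aars1 (alanyl) rose by 0.52 and 0.44 on the log2 scale in ESCs and EpiLCs, Nars1 (asparaginyl) by 0.38 and 0.43, Yars1 (tyrosyl) by 0.48 and 0.33, and Lars1 (leucyl) by 0.49 and 0.32. Mars1, the methionyl enzyme, rose by 0.32 and 0.14. Its gene shares 3820 bases with Ddit3 on the opposite strand, which rose by 1.99 and 1.32, so the reads of both are kept apart by strand alone, and the libraries are directional per the protocol. Eprs1, which charges both glutamate and proline, rose by 0.35 and 0.12. Iars1 (0.31) and Tars1 (threonyl, 0.22) rose in ESCs and did not pass in EpiLCs (0.07 and 0.12), and Qars1 did not pass in ESCs (0.06) and rose in EpiLCs (0.36). With transcript-length offsets Lars1 no longer passed in ESCs (0.33, adjusted p = 0.041) or EpiLCs (0.16, adjusted p = 0.32), nor did Tars1 in ESCs (0.20) or Qars1 (0.19, adjusted p = 0.21) and Eprs1 (0.11) in EpiLCs. Mars1 in EpiLCs (0.22, adjusted p = 0.01) then lay at the limit and did not pass.

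Not every cytosolic gene took this direction. Kars1, the lysyl enzyme that serves both compartments, did not pass in either state (0.08 and 0.10). Farsa and Farsb, the 2 subunits of the phenylalanyl enzyme, had -0.08 and -0.11 in ESCs, not passing, and fell by 0.33 and 0.32 in EpiLCs. Wars1 (tryptophanyl) had -0.11 in ESCs and fell by 0.20 in EpiLCs, and Rars1 (arginyl) had -0.05 and fell by 0.25. Hars1 passed in neither state (-0.04 and -0.10). These 4 EpiLC falls had adjusted p between 5.5e-06 and 0.0024, and none reached the fold limit. With transcript-length offsets the fall of Wars1 no longer passed (-0.17, adjusted p = 0.082).

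Of the 7 cytosolic genes whose products sit in the multi-synthetase complex (Eprs1, Iars1, Kars1, Lars1, Mars1, Qars1 and Rars1), 0 were called in either state. Among genes that averaged 10 CPM or more, 19.4% were called in ESCs and 18.1% in EpiLCs. At the adjusted p alone 4 of the 7 rose and 0 fell in ESCs (median 0.31), and 4 rose and 1 fell in EpiLCs (median 0.12). Of the 12 outside the complex, 8 rose and 0 fell in ESCs (median 0.43), and 7 rose and 3 fell in EpiLCs (median 0.32). By catalytic fold, which divides the synthetases into class I and class II, 6 of 9 class I and 5 of 9 class II cytosolic genes rose in ESCs, with Eprs1 holding 1 of each. In EpiLCs 6 of 9 and 4 of 9 rose. Among genes that averaged 10 CPM or more, 27.3% rose and 33.4% fell in ESCs, and 25.1% and 35.1% in EpiLCs. Differences between these parts of the cytosolic set were not tested.

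ATF4 binds a short motif, the C/EBP-ATF response element (CARE), and its matches are shown because several cytosolic synthetase genes are known ATF4 targets. Windows from 250 bases before the start of the Ensembl canonical transcript to 50 bases from the start on were searched on both strands of GRCm39 with GENCODE vM39 for TGATGNAAN. A match was found in 5 of 19 cytosolic windows (26.3%) and 0 of 16 mitochondrial windows, beside 462 of 17054 windows of tested protein-coding genes (2.7%). A match for each of the 5 genes is printed in the sense of the gene, 5′ to 3′, with the motif in capitals, which all read on the opposite strand. No match shared bases with a match of the other motifs searched.
Aars1 (chr8:111760472-111760500, plus): agcgggtcacTTTTCATCAgagcgctctg
Cars1 (chr7:143153783-143153811, minus): cggcgccgcgGTTGCATCAgattctggaa
Gars1 (chr6:55014945-55014973, plus): tggctgcgctATTTCATCAtgcaccgggc
Iars1 (chr13:49835602-49835625, plus): cactgtcagtATTGCATCAcctcc
Tars1 (chr15:11399742-11399770, minus): caggagtcccGTTGCATCAgctggttagc

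Counted from the start of the canonical transcript, which is not always that of the annotated gene, the first capital stood at -26 in Aars1, -9 in Tars1, 27 in Cars1, 12 in Gars1 and 37 in Iars1. Aars1 held a second match, not printed, with its first base at -147. All 5 genes with a match rose in ESCs at the adjusted p, by 0.22 (Tars1) to 0.64 (Gars1) on the log2 scale, beside 12 of all 19 cytosolic genes. With transcript-length offsets Tars1 no longer passed there (0.20, adjusted p = 0.08). In EpiLCs 3 of the 5 rose (Aars1, Cars1 and Gars1), beside 11 of all 19 cytosolic genes. Iars1 (0.07, adjusted p = 0.14) and Tars1 (0.12, adjusted p = 0.048) did not pass. Vars1 and Sars1, with larger rises, held no match in these windows. A match is a description of the sequence and not of binding. The motif of the nuclear respiratory factor NRF1 was in 3 of 19 cytosolic windows (15.8%), 3 of 16 mitochondrial windows (18.8%) and 7.3% of all windows, and CACGTG, the E-box read alike on both strands, was in 4 of 19 (21.1%), 0 of 16 and 9.2%. In Tars1 the E-box stood directly beside an NRF1 match. The 3 mitochondrial genes with the NRF1 motif, printed in the same way, did not move together: Mars2 and Pars2 (prolyl) fell in ESCs and Iars2 (isoleucyl) rose.
Mars2 (chr1:55276328-55276357, plus): ccgtccagctGCGCACGCGCcctttcccgt
Pars2 (chr4:106508274-106508303, plus): ggccatgtcgGCGCAGGCGCactggctttg
Iars2 (chr1:185061571-185061600, minus): ccgccccggaGCGCGTGCGCagttcctcgc

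Among the mitochondrial genes Wars2, the tryptophanyl enzyme (chr3:99047954-99146502, plus strand), had the largest fall in both states. It stood at 18.2, 18.9 and 18.1 CPM in Neg ESCs and at 9.58, 10.6 and 10.9 CPM in 3xKD ESCs. The EpiLC values were 17.2, 15.2 and 17.8 CPM in Neg and 10.6, 10.3 and 8.18 CPM in 3xKD. The groups did not overlap. The log2 fold change was -0.83 ± 0.10 in ESCs (0.564-fold, adjusted p = 3.2e-06) and -0.79 ± 0.10 in EpiLCs (0.579-fold, adjusted p = 6.5e-06). Transcripts annotated as coding held 20.8% to 60.6% of its counts per library.

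Ears2, the mitochondrial glutamyl enzyme (chr7:121635056-121666864, minus strand), was the other mitochondrial gene called lower in both states. It held 28.8, 31.0 and 32.2 CPM in Neg ESCs and 20.5, 18.2 and 20.7 CPM in 3xKD ESCs, without overlap. In EpiLCs it held 46.4, 48.7 and 45.6 CPM in Neg and 27.2, 28.8 and 27.0 CPM in 3xKD. Its log2 fold change was -0.64 ± 0.06 in ESCs (adjusted p = 5.2e-07) and -0.76 ± 0.06 in EpiLCs (adjusted p = 3.7e-08). The ESC call was lost with transcript-length offsets (-0.55) and without 3xKD ESCs replicate 2 (-0.58).

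Mars2 (chr1:55276336-55287629, plus strand) was called in ESCs alone. Its CPM were 31.4, 35.4 and 34.0 in Neg ESCs and 20.2, 20.4 and 19.1 in 3xKD ESCs. They were 32.3, 31.2 and 32.8 in Neg EpiLCs and 22.3, 24.5 and 25.5 in 3xKD EpiLCs. The groups stood apart in both states. The fall was -0.76 ± 0.06 on the log2 scale in ESCs (adjusted p = 7.3e-08) and -0.41 ± 0.06 in EpiLCs (adjusted p = 5.4e-05), and the difference between the states did not pass (adjusted p = 0.015).

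Rars2, the arginyl enzyme (chr4:34614638-34660904, plus strand), was called in EpiLCs alone. It stood at 29.1, 32.1 and 31.2 CPM in Neg ESCs and 22.4, 22.6 and 22.3 CPM in 3xKD ESCs. In EpiLCs it stood at 47.9, 46.3 and 46.0 CPM in Neg and 28.9, 27.1 and 29.9 CPM in 3xKD, again apart. The log2 fold changes were -0.46 ± 0.06 (adjusted p = 4.8e-06) and -0.71 ± 0.05 (adjusted p = 2.1e-08), and their difference did not pass (adjusted p = 0.041).

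Vars2, the mitochondrial valyl enzyme (chr17:35966526-35978510, minus strand), went the other way. It held 37.8, 42.2 and 42.9 CPM in Neg ESCs and 55.1, 51.8 and 49.8 CPM in 3xKD ESCs. Neg EpiLCs held 29.3, 28.7 and 27.2 CPM, against 46.5, 44.8 and 44.6 CPM in 3xKD EpiLCs. The groups did not overlap in either state. The log2 fold change was 0.35 ± 0.06 in ESCs (adjusted p = 8.3e-05) and 0.67 ± 0.06 in EpiLCs (adjusted p = 8.5e-08). With transcript-length offsets the EpiLC value was 0.71 but the adjusted p was 0.019, which ended the call. The transcript annotated as coding held 42.9% to 80.7% of its counts.

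The remaining mitochondrial genes other than Lars2 changed less in their gene totals. Iars2 rose in both states (0.15 and 0.26). Sars2 (seryl) fell in both (-0.31 and -0.36). Pars2 (-0.47), Hars2 (histidyl, -0.32) and Aars2 (alanyl, -0.27) fell in ESCs and did not pass in EpiLCs. Yars2 fell in EpiLCs (-0.27) and did not pass in ESCs (-0.08). It lies on chromosome 16, where the median log2 fold change over 454 genes was 0.30 in both states, while the medians of the other chromosomes that carry members lay between -0.05 and 0.06. Relative to its chromosome Yars2 stood at -0.38 in ESCs and -0.57 in EpiLCs. The part of the chromosome in this value was not tested. Tars2 (threonyl), Fars2 (phenylalanyl), Nars2 (asparaginyl) and Cars2 (cysteinyl) passed in neither state. Transcripts annotated as coding held 27.3% to 75.0% of Cars2 counts. Their sum ran from 12.45 to 13.87 CPM in Neg ESCs and from 4.24 to 6.94 CPM in 3xKD ESCs. In EpiLCs it ran from 11.3 to 14.81 CPM in Neg and from 5.75 to 9.70 CPM in 3xKD. The change of this coding part was not tested. With transcript-length offsets Hars2, Aars2, Pars2, Sars2, Rars2, Iars2 and Vars2 no longer passed in ESCs, with adjusted p from 0.013 (Iars2) to 0.32 (Pars2).

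**Figure D3:**
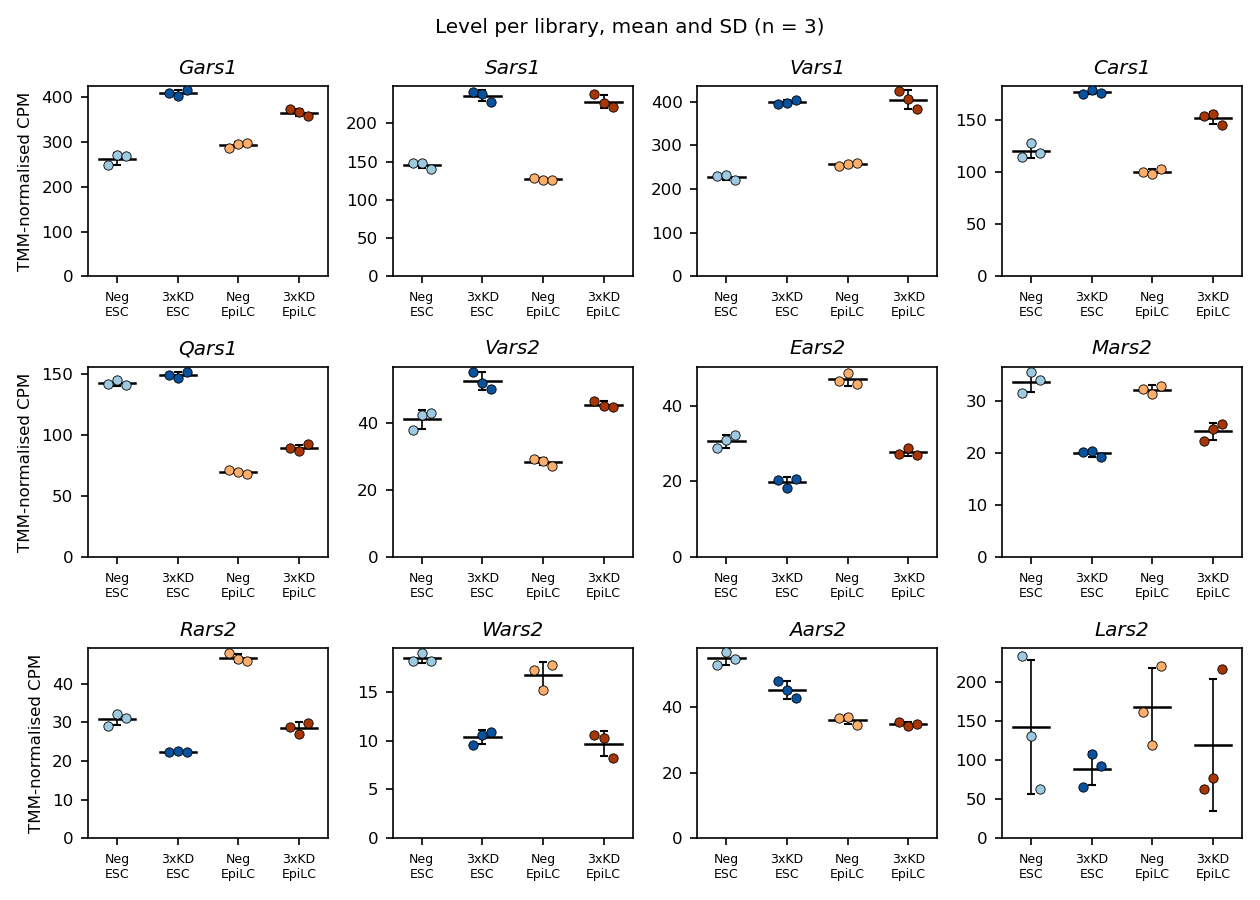
TMM-normalised CPM (y axis, from 0, own scale per gene) in each library of 12 synthetase genes, with group means (lines) and SD (bars, n = 3). Gars1, Sars1, Vars1, Cars1 and Vars2 are higher and Ears2, Mars2, Rars2 and Wars2 lower in 3xKD of both states without overlap, Qars1 is lower in EpiLCs, and Lars2 scatters within groups.

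Lars2, the mitochondrial leucyl enzyme (chr9:123195952-123291731, plus strand), could not be read from its gene total. It held 233, 131 and 62.3 CPM in Neg ESCs and 66.0, 108 and 91.7 CPM in 3xKD ESCs. In EpiLCs it held 162, 119 and 220 CPM in Neg and 63.3, 77.1 and 216 CPM in 3xKD. Its groups overlapped in both states, with a coefficient of variation of up to 71.2% within a group where the other 34 members reached at most 14.2%. The log2 fold changes of -0.66 ± 0.44 and -0.49 ± 0.42 did not pass (adjusted p = 0.27 and 0.41). The scatter lay in 1 transcript annotated for nonsense-mediated decay, ENSMUST00000217116, which held 0 CPM in 2 libraries and 183 CPM in another. The coding transcript ENSMUST00000038863 ran from 41.5 to 48.6 CPM in Neg ESCs and from 50.9 to 63.7 CPM in 3xKD ESCs, and from 61.1 to 81.5 CPM in Neg EpiLCs and 50.8 to 68.2 CPM in 3xKD EpiLCs. Without the decay transcript, a choice made after seeing the data, the change was 0.40 in ESCs (adjusted p = 0.0065) and -0.21 in EpiLCs (adjusted p = 0.13). The difference between these effects then passed (-0.61, adjusted p = 0.0094), and Lars2 was called higher in Neg EpiLCs than in Neg ESCs (0.63, adjusted p = 0.0001).

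**Figure D4:**
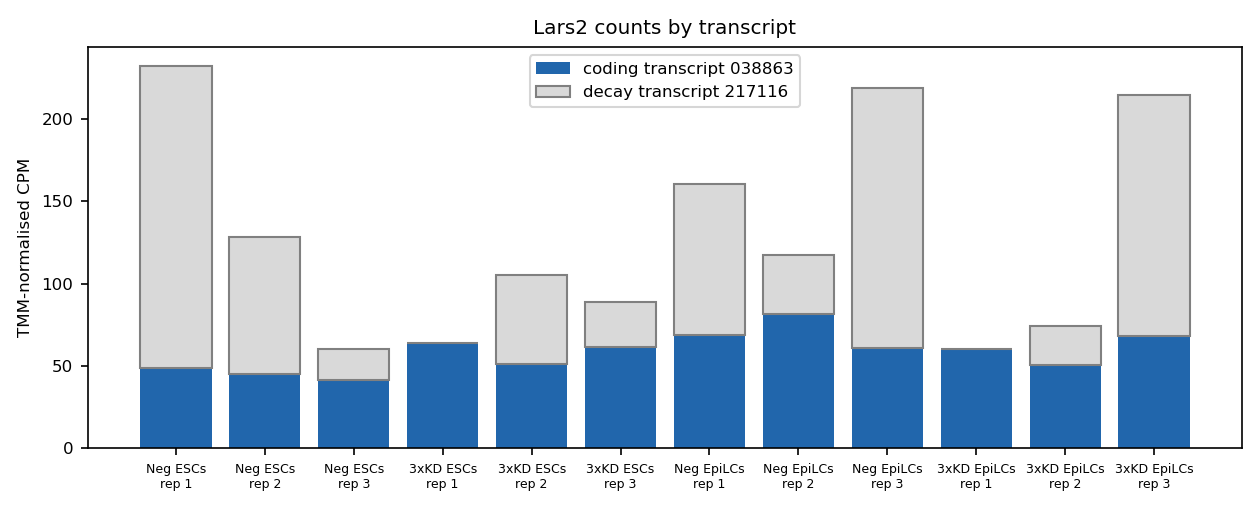
Lars2 counts per library as TMM-normalised CPM (y axis, from 0), divided into the coding transcript ENSMUST00000038863 (blue) and ENSMUST00000217116, which is annotated for nonsense-mediated decay (grey). The blue part runs from 41.5 to 81.5 CPM and the grey part from 0 to 183 CPM.

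For 13 amino acids the list holds 1 cytosolic and 1 mitochondrial gene each, so that both changes can be set side by side. In ESCs the cytosolic gene had the larger log2 fold change for 13 of 13 amino acids, with a median difference of 0.56. In EpiLCs this held for 11 of 13, with a median difference of 0.48. The leucine pair rests on the unstable Lars2 total, and without its decay transcript Lars2 (0.40) still stood below Lars1 (0.49) in ESCs. The ratio of the 2 genes within a library does not depend on scaling. This ratio was higher in every 3xKD library than in every Neg library for 11 amino acids in ESCs and 8 in EpiLCs, and lower for isoleucine alone in EpiLCs. Single genes stood apart between these groups often, with 25.2% of all genes tested higher and 23.8% lower without overlap in ESCs and 24.1% and 23.1% in EpiLCs. These shares are of single genes and not of ratios, and how often the ratio of any 2 genes stood apart was not counted. For serine the log2 ratio of Sars1 to Sars2 ran from 1.93 to 2.13 in Neg ESCs and from 2.91 to 3.12 in 3xKD ESCs, and from 1.69 to 1.78 in Neg EpiLCs and 2.83 to 3.03 in 3xKD EpiLCs. For valine the ratio rose in ESCs (2.36 to 2.60 in Neg and 2.84 to 3.02 in 3xKD), while in EpiLCs, where both genes rose, the groups overlapped.

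**Figure D5:**
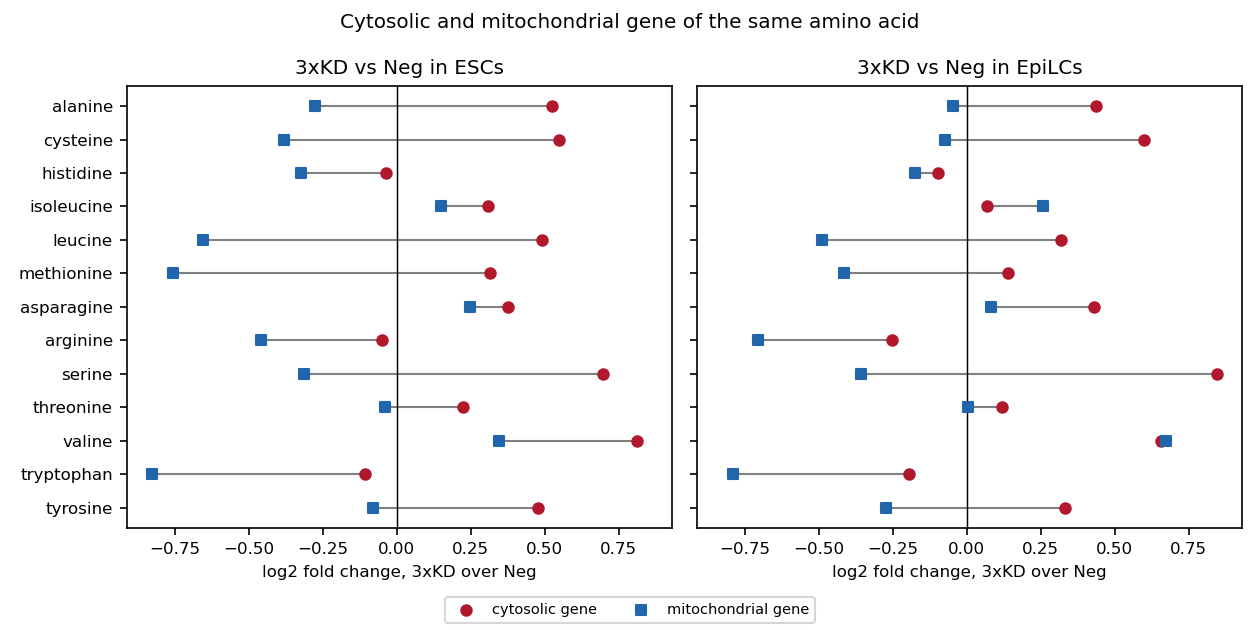
Log2 fold change of 3xKD over Neg (x axis) of the cytosolic gene (red circles) and the mitochondrial gene (blue squares) of 13 amino acids, in ESCs (left) and EpiLCs (right). The red circle lies right of the blue square for 13 amino acids in ESCs and for 11 in EpiLCs, with isoleucine and valine as exceptions.

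Summed over the 19 genes, cytosolic synthetases held 3431 to 3541 CPM in Neg ESCs and 4511 to 4540 CPM in 3xKD ESCs. In EpiLCs the sums ran from 3585 to 3687 CPM in Neg and 4298 to 4405 CPM in 3xKD. The mitochondrial sum without Lars2 ran from 546 to 579 CPM in Neg ESCs and 510 to 517 CPM in 3xKD ESCs, and from 575 to 583 CPM and 532 to 536 CPM in EpiLCs. Mitochondrial genes other than Lars2 thus took 13.7% to 14.1% of synthetase counts in Neg ESCs and 10.1% to 10.3% in 3xKD ESCs. The shares were 13.5% to 13.9% in Neg EpiLCs and 10.8% to 11.1% in 3xKD EpiLCs. With Lars2 included they were 15.4% to 18.5%, 11.4% to 12.1%, 16.2% to 17.7% and 11.9% to 14.7%, in the same order of groups.

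The comparison of EpiLCs with ESCs asks how the sets moved on exit from the naive state. In Neg cells 1 of 19 cytosolic genes was called lower (Qars1) and 0 higher, beside 20.8% of all genes called, 9.78% higher and 11% lower. Of the mitochondrial genes 2 were called higher (Ears2 and Rars2) and 1 lower (Aars2). In 3xKD cells only Qars1 was called, lower, where 18.7% of all genes were called, 9.42% higher and 9.32% lower. Among genes that averaged 10 CPM or more, 25.5% were called in Neg and 22.1% in 3xKD. At the adjusted p alone 3 cytosolic genes rose and 5 fell and 5 mitochondrial genes rose and 3 fell in 3xKD, where 33.8% of all genes passed (15.9% up and 17.9% down). Of the genes that averaged 10 CPM or more, 26.5% rose and 33.8% fell in 3xKD. Most passes of members in 3xKD were lost with transcript-length offsets. The genes were Farsb, Lars1, Cars1, Gars1, Iars1 and Tars1, and the mitochondrial Mars2, Rars2, Tars2, Fars2 and Vars2. Both comparisons use the libraries of the 3xKD comparisons, so their values are given side by side and are not independent.

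Qars1 (chr9:108384905-108393140, plus strand) had the largest change of all 35 genes between the states. It stood at 142, 146 and 141 CPM in Neg ESCs and at 71.7, 69.9 and 68.1 CPM in Neg EpiLCs. In 3xKD it stood at 150, 147 and 152 CPM in ESCs and 89.3, 87.2 and 92.5 CPM in EpiLCs. EpiLC libraries lay below ESC libraries throughout. The log2 fold change was -1.03 ± 0.04 in Neg (0.489-fold, adjusted p = 2.9e-13) and -0.74 ± 0.03 in 3xKD (adjusted p = 2.6e-11). Transcripts annotated as coding held 24.8% to 49.4% of its counts, and with transcript-length offsets the values were -0.89 in both lines.

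Ears2 and Rars2 rose from Neg ESCs to Neg EpiLCs by 0.61 ± 0.06 (adjusted p = 2.9e-07) and 0.60 ± 0.05 (adjusted p = 8.1e-08) on the log2 scale, with the library values given above. In 3xKD cells the rises were 0.48 and 0.35, past the adjusted p and under the fold limit. With transcript-length offsets the rise of Rars2 in 3xKD was 0.18 and did not pass (adjusted p = 0.35). Both Neg calls were lost without Neg ESCs replicate 1 (0.57 and 0.56), and that of Rars2 also with transcript-length offsets (0.56). Aars2 (chr17:45817749-45832900, plus strand) held 53.1, 57.1 and 54.8 CPM in Neg ESCs and 36.8, 37.2 and 34.6 CPM in Neg EpiLCs, without overlap. In 3xKD it held 48.2, 45.4 and 42.8 CPM in ESCs and 35.6, 34.5 and 35.1 CPM in EpiLCs. The fall in Neg was -0.60 ± 0.05 (adjusted p = 5.3e-08), and it was under the fold limit without Neg ESCs replicate 2, Neg EpiLCs replicate 1 or Neg EpiLCs replicate 3, at -0.58, -0.58 and -0.57, and with transcript-length offsets (-0.57).

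Below the fold limit, Lars1 (0.54), Farsb (0.43), Kars1 (0.26), Vars1 (0.18), Gars1 (0.16) and Eprs1 (0.16) rose in Neg EpiLCs, and Cars1 (-0.27), Sars1 (-0.20) and Tars1 (-0.17) fell. Among mitochondrial genes Yars2 (0.49) and Tars2 (0.15) rose and Vars2 (-0.53), Pars2 (-0.36) and Iars2 (-0.15) fell. Of 19 cytosolic genes 6 rose and 4 fell at the adjusted p (35.7% of all genes passed, 17.5% up and 18.2% down), and of 16 mitochondrial genes 4 rose and 4 fell. Among genes that averaged 10 CPM or more, 30.6% rose and 32.7% fell. The cytosolic shares were 31.6% and 21.1%, and the mitochondrial shares 25% and 25%. The medians of the cytosolic and mitochondrial genes were 0.11 and -0.03, beside 0.01 over all genes. With transcript-length offsets Cars1, Tars1, Iars2, Vars2 (-0.20) and Pars2 (0.25) no longer passed. Without Neg EpiLCs replicate 2, Lars1 reached 0.59 and was called, as was Vars2 at -0.58 without Neg ESCs replicate 1.

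The difference of the 3xKD effect between EpiLCs and ESCs was tested for each gene at an adjusted p under 0.01, with no fold limit. It passed for 5 of 19 cytosolic and 1 of 16 mitochondrial genes, where 10% of all genes passed, 4.76% toward a larger value in EpiLCs and 5.27% toward a smaller one. Among genes that averaged 10 CPM or more, as the members mostly do, 22.3% passed, beside 26.3% of the cytosolic and 6.25% of the mitochondrial genes. Gars1, Iars1, Eprs1 and Lars1 had the smaller value in EpiLCs, and Qars1 and Vars2 the larger one.

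Genes that work beside the synthetases were counted in the same fits, and their counts at the adjusted p are to be read beside the 27.3% that rose and 33.4% that fell in ESCs, and 25.1% and 35.1% in EpiLCs, among genes that averaged 10 CPM or more. Of 7 synthetase partners, 0 rose and 3 fell in ESCs and 0 rose and 5 fell in EpiLCs at the adjusted p. Gatb (-0.64 and -0.66) and Gatc (-0.60 and -0.43), subunits of the mitochondrial glutamyl-tRNA amidotransferase that acts on the tRNA Ears2 charges, fell in both states, as did Aimp2, a scaffold of the multi-synthetase complex (-0.19 and -0.43). Of 14 genes of tRNA maturation and export, 2 rose and 8 fell in ESCs and 1 rose and 9 fell in EpiLCs. Thg1l (-0.67 and -0.66) and the tRNA 3′ processing enzyme Elac2 (-0.58 and -0.75) were among those that fell.

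Of 8 mitochondrial translation factors, 0 rose and 4 fell in ESCs and 0 rose and 5 fell in EpiLCs, with Mtif3 (-0.46 and -0.67) the lowest in EpiLCs. Of 5 cytosolic elongation factors 2 rose in both states, Eef1a1 (0.23 and 0.13) and Eef2 (0.20 and 0.13), with 0 and 1 that fell. Of 6 editing and hydrolysis genes 1 rose and 3 fell in ESCs and 1 rose and 1 fell in EpiLCs. Dtd1, a D-aminoacyl-tRNA deacylase, rose (0.85 and 0.52) and Ptrh2, a peptidyl-tRNA hydrolase, fell (-0.72 and -0.81). Of 29 genes of the ATF4 amino acid response, 22 rose and 3 fell in ESCs (median 0.73) and 20 rose and 4 fell in EpiLCs (median 0.74). Trib3 (1.58 and 1.76), Phgdh of serine synthesis (1.08 and 1.15) and the amino acid transporter Slc7a5 (0.99 and 1.19) rose, and Slc38a2, another transporter, fell (-0.88 and -1.12). Asns, asparagine synthetase, fell in ESCs (-0.25) and rose in EpiLCs (1.14), while Atf4 itself rose by 0.40 and 0.17.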

How the data were processed

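Single-end reads of 12 libraries were demultiplexed with bcl2fastq, trimmed with Trim Galore 0.6.7, mapped to GRCm39 with STAR 2.7.9a and quantified with Salmon 1.10.1, per the labels and the methods. The authors deposited, for each transcript and library, estimated counts (not normalised), TPM (scaled by length and library total) and effective length. The labels give polyadenylated RNA where the protocol describes rRNA depletion and directional libraries.

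Transcript values were added up by gene and rounded, and the 25446 genes with at least 10 counts over all libraries were scaled by TMM and fitted in 1 model of the 4 groups with edgeR 4.0.16 (quasi-likelihood, R 4.3.3). Adjusted p-values are Benjamini-Hochberg over all genes tested. The study used DESeq2, an alternative here (1.42.0). The fit was tested on simulated data. The annotation GENCODE vM39 matched 99.0% of genes. Estimated counts of overlapping genes and of near-identical transcripts are uncertain. Totals of 11221023 to 19652197 counts set the precision, and the lowest group mean of a member was 9.67 CPM (Wars2). Within each group the counts of every pair of libraries differed by more than sampling noise.

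Members may all be named. Values per library are given for those called between 3xKD and Neg and for the 3 called members with the largest change between Neg EpiLCs and Neg ESCs. Lars2 was added after its values were seen. The members and lists were chosen with earlier results of these data known.

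Alternatives were other scalings (RLE, upper-quartile, library size alone), other filters, DESeq2, transcript-length offsets, a replicate block, fits of only the groups compared, other limits, subtraction of the chromosome median and leaving out each library. Lars2 without its decay transcript, and the counts without a fold limit, were added after seeing the data. Genes of the lists beside the members may be named where they are described by counts.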

Additional observations from a re-analysis of the deposited data

Results flagged for a closer look

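The effect of 3xKD differed between EpiLCs and ESCs, by a test of the difference itself at an adjusted p under 0.01, for 6 of 35 synthetase genes (17.1%), beside 10% of all genes and 22.3% of those that averaged 10 CPM or more. Values are EpiLCs minus ESCs on the log2 scale. Gars1 differed by -0.32 (adjusted p = 0.0003), Iars1 by -0.24 (adjusted p = 0.0017), Eprs1 by -0.23 (adjusted p = 0.0018) and Lars1 by -0.17 (adjusted p = 0.0097). Each of these 4 rose in 3xKD ESCs at the adjusted p. Qars1 differed by 0.29 (adjusted p = 0.00046), with a 3xKD effect of 0.06 in ESCs and 0.36 in EpiLCs. Vars2 differed by 0.33 (adjusted p = 0.0099), with 0.35 in ESCs and 0.67 in EpiLCs. With transcript-length offsets the difference was 0.002 for Qars1 and 0.04 for Vars2 (adjusted p = 1 and 0.97), and Gars1 alone still passed (-0.36, adjusted p = 0.0063). Over all genes the difference passed for 2553, and for 731 with transcript-length offsets. Lars1 and Vars2 lie next to the limit and lost it when most single libraries were left out. Groups of 3 libraries are too small for a test of single outlying libraries.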

How the results depend on the processing

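Counts at both limits stayed within 1.5 times their value for the 3xKD comparisons under every other tool, scaling, filter, block or length offset. With no fold limit they rose: at an adjusted p under 0.01, cytosolic genes numbered 12 and 15 in 3xKD against Neg ESCs and EpiLCs and 10 and 8 in EpiLCs against ESCs of Neg and 3xKD, and mitochondrial genes 10, 8, 8 and 8. At an adjusted p under 0.05 they numbered 13, 17, 13 and 12 (cytosolic) and 12, 8, 8 and 8 (mitochondrial). The share of all genes that passed this looser limit was not counted. For EpiLCs against ESCs in Neg, upper-quartile factors called 2 cytosolic genes and library size alone called 1 mitochondrial gene. The difference between the states, 5 cytosolic and 1 mitochondrial gene, gave 2 and 2 with library size alone, 1 and 0 with transcript-length offsets and 10 and 4 at an adjusted p under 0.05. Over all genes this difference passed for 2553, for 2346 with library size alone and for 731 with transcript-length offsets. Its mitochondrial count was 0 with DESeq2 or upper-quartile factors and 2 with filterByExpr or no filter. Counts without a fold limit moved with transcript-length offsets: in ESCs 3 mitochondrial genes fell and 0 rose, and in EpiLCs 7 cytosolic and 1 mitochondrial gene rose. With library size alone 1 mitochondrial gene rose in ESCs. The cause of these shifts was not tested.

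Leaving out 1 library at a time gave 1 to 2 cytosolic genes called in EpiLCs against ESCs of Neg (2 without Neg EpiLCs replicate 2), 0 to 1 cytosolic genes lower in 3xKD ESCs at the adjusted p (1 without Neg ESCs replicate 1) and 1 to 2 mitochondrial genes higher there (1 without 3xKD ESCs replicate 3). The difference between the states gave 4 to 7 cytosolic and 0 to 2 mitochondrial genes, the latter 2 without Neg ESCs replicate 1, 1 without 3xKD EpiLCs replicate 1 and 0 without each other library.

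Over all alternatives, results of members that did not pass an adjusted p of 0.01 changed sign 67 times. Signs also turned in 3 named cases where the main fit or the alternative passed. Pars2 in EpiLCs against ESCs of Neg was 0.25 with transcript-length offsets (-0.36 otherwise). Lars2 without its decay transcript was 0.40 in 3xKD ESCs and -0.61 for the difference between the states. No shared effect of the replicate number was seen, since deviations of same-numbered libraries correlated between -0.135 and 0.1. This does not show whether same-numbered libraries came from cultures handled together. With the replicate number as a block the counts were 3 cytosolic and 3 mitochondrial genes in ESCs and 3 and 4 in EpiLCs, as without it, and 0 mitochondrial genes for the difference between the states.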
